A study of Mus musculus with 16 samples.

Results

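Genes of meiotic entry and sister chromatid cohesion were followed through the development of primordial germ cells (PGCs) of the mouse, from which eggs and sperm later form. They are Stra8, the meiotic cohesin genes Rec8, Smc1b and Stag3, and the mitotic cohesin genes Smc1a, Smc3, Rad21, Stag1 and Stag2. The 9 genes were taken by symbol from the 26219 genes listed in both expression tables, and each symbol matched a single entry in each table. RNA of cells from gonads was sequenced from its 3′ ends in 16 libraries, and the values are RPM (reads scaled to a common library total), which are not divided by transcript length. RPM levels of the 9 genes are compared between samples for a gene and never between genes.

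The first table held 8 libraries of C57BL/6 PGCs at E11.5 (E, embryonic day). The 4 control libraries carried Prdm1(flox/flox) and Rosa26(neo-EYFP/+). The 4 conditional knockout (CKO) libraries carried the same floxed and reporter alleles and, in addition, Dppa3-MCMP(Tg/0), a transgene absent from the controls. Per the labels' protocols, dams with the floxed allele received 4-OHT (4-hydroxytamoxifen) at E10.5, 3 mg per 25 g of body weight, to induce Cre-loxP recombination, so both groups had been exposed to it. Sorting by EYFP and with an antibody to SSEA-1, a surface antigen of PGCs, is described without being tied to a group. The second table held 8 wild-type libraries from mice of the strain ICR:C57BL/6=1:1 with the genotype Dppa3(EGFP/+), 2 each at E10.5, E11.5, E13.5 male and E13.5 female. Separate litters are not stated for replicate libraries, and the p-values reflect only how these libraries vary, which may be technical.

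Cohesin is a ring of an SMC1 and an SMC3 protein closed by a kleisin subunit, to which a STAG protein binds, and it holds sister chromatids together from DNA replication until segregation. Meiotic cells largely exchange the mitotic subunits for meiotic ones: REC8 replaces the kleisin RAD21, SMC1B replaces SMC1A, and STAG3 replaces STAG1 and STAG2, while SMC3 serves in both. In mice, STRA8, a protein induced by retinoic acid, drives germ cells of the fetal ovary into meiotic prophase, whereas germ cells of the fetal testis stop dividing and enter meiosis only after birth.

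The genes lie apart in the genome (GRCm38.p6 coordinates, the reference release of the submitters' mm10 build). Stra8 (Entrez gene 20899) lies at chr6:34920163-34939344 on the plus strand, Rec8 (56739) at chr14:55618002-55625395 on the plus strand, Smc1b (140557) at chr15:85064689-85131957 on the minus strand and Stag3 (50878) at chr5:138272514-138312397 on the plus strand. Among the mitotic genes, Smc1a (24061) and Stag2 (20843) are X-linked, Smc3 (13006) lies on chromosome 19, Rad21 (19357) on chromosome 15 and Stag1 (20842) on chromosome 9. Other annotated genes overlap 4 of the 9. On the opposite strand these are the processed pseudogenes Gm10923 in Smc1b, Gm15267 in Smc1a, and Gm47803 and Gm8661 in Stag1, and the unclassified transcript Gm37564 in Stag2. Stag1 also overlaps 3 unclassified transcripts on its own strand. Whether the authors' counting used the strand is not given in the sources used here, so reads of such overlapping genes cannot be assigned with certainty.

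The sequences just before the start sites of the 4 genes linked to meiosis are shown because these genes were higher together in E13.5 female PGCs. Each is the stretch of 250 bases before the start site in RefSeq's table of promoters for GRCm38.p6, which held 7 of the 9 genes, all but Rad21 and Stag2. Capitals mark 3 motifs searched on both strands, which are the CCAAT box (the letters CCAAT, which read ATTGG when on the opposite strand), the E2F site TTCCCGC and the E-box with the letters CACGTG. These motifs do not overlap each other here.
Stra8, chr6:34920698-34920947, plus strand: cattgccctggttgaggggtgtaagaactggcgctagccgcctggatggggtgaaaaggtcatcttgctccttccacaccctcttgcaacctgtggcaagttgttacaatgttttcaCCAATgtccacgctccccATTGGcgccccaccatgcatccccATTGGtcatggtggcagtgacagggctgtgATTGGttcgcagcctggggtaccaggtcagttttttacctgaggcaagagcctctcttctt
Rec8, chr14:55617916-55618165, plus strand: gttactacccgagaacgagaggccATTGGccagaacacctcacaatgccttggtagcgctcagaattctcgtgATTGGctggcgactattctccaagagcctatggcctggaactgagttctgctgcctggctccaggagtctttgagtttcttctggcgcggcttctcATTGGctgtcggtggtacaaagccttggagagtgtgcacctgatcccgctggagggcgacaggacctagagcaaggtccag
Smc1b, chr15:85131958-85132207, minus strand: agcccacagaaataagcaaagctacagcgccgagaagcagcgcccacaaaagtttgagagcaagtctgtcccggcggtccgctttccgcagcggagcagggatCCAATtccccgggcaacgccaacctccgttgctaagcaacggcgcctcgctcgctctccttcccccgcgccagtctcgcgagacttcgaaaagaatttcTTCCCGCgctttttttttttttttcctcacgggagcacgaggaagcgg
Stag3, chr5:138280259-138280508, plus strand: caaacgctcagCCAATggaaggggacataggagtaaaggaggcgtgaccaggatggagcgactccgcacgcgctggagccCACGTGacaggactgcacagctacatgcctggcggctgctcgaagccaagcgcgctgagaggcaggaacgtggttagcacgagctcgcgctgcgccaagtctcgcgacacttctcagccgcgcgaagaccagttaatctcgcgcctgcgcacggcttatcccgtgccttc
The Stra8 and Stag3 stretches fall wholly and the Rec8 stretch partly within the annotated genes, downstream of the first annotated base, because the table uses a later start site. Stra8 held 4 CCAAT boxes, at 133, 115, 91 and 61 bases before the start, and Rec8 held 3, at 226, 177 and 81 bases. A CCAAT box was present in 6 of the 7 genes matched, all but Smc3, and in 33.9% of all 32851 windows of this length. The E2F site was present in Smc1b, 48 bases before its start, and in Stag1, 16 bases before its start, against 3.82% of all windows. The E-box was present in Stag3 alone among the 7, at 170 bases, against 6.02% of windows. The motif CNCCTCAG, reported to be bound by STRA8 in the mouse, was in none of the 7 stretches and in 6.42% of windows. The GC box GGGCGG, which is not capitalised, was in Smc1a, Smc3 and Stag1 and in 32.7% of windows. These matches describe the letters of the stretches and say nothing of which factors bind there.

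The libraries were deep enough to measure every gene except Stra8 outside E13.5 females. Depth, read from the spacing of low values, was 2798000 to 5032000 reads in the floxed libraries and 1485000 to 4783000 in the wild-type libraries, so that 3 reads, used as the limit for a count of 0, correspond to 0.596 to 1.07 RPM and 0.627 to 2.02 RPM. These limits cover counting error only. All 8 germ cell markers were above 0 in every library, with summed levels of 3135 to 3928 RPM in the floxed table and 4425 to 9402 RPM in the wild-type table. Markers of other cells differed within each list. For Sertoli cells Amh was at most 0.569 RPM, while Aard was at 12.5 to 68.3 RPM over all groups. For endothelium Cdh5 was at most 0.334 RPM, while Pecam1 was at 52.7 to 132 RPM and Tek reached 21.1 RPM. For ovarian supporting cells Foxl2 was at most 0.548 RPM, and Wnt4 reached 28.6 RPM in the libraries labelled CKO. Control library 1 and CKO library 4 correlated least with their own groups (mean r over the genes tested 0.9648 and 0.9645).

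The first question in the wild type was how the genes moved while PGCs entered sex-specific development. Between E11.5 and E13.5, Stra8, Rec8, Smc1b and Stag3 rose in female PGCs, together with Smc3, Stag1 and Stag2, and Rad21 fell. In male PGCs over the same interval Smc1b, Stag3 and Stag2 rose and Rad21 fell, Rec8 did not pass the test, and Stra8 passed it on 7 reads. Of the 9 genes, 8 passed the test in females and 5 in males (limma, Benjamini-Hochberg adjusted p under 0.05 over all 10749 genes tested), with Stra8 in both counts although only the female libraries brought it into the test. Across all genes tested, 51.2% were called in females, 31.2% as higher and 20.0% as lower. In males 38.2% were called, 22.3% as higher and 15.9% as lower, so that the 5 of 9 called in males stand against a large background. The E11.5 libraries, whose sex the labels do not give, are shared by these comparisons, and the values for each sex are given side by side.

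**Figure D1:**
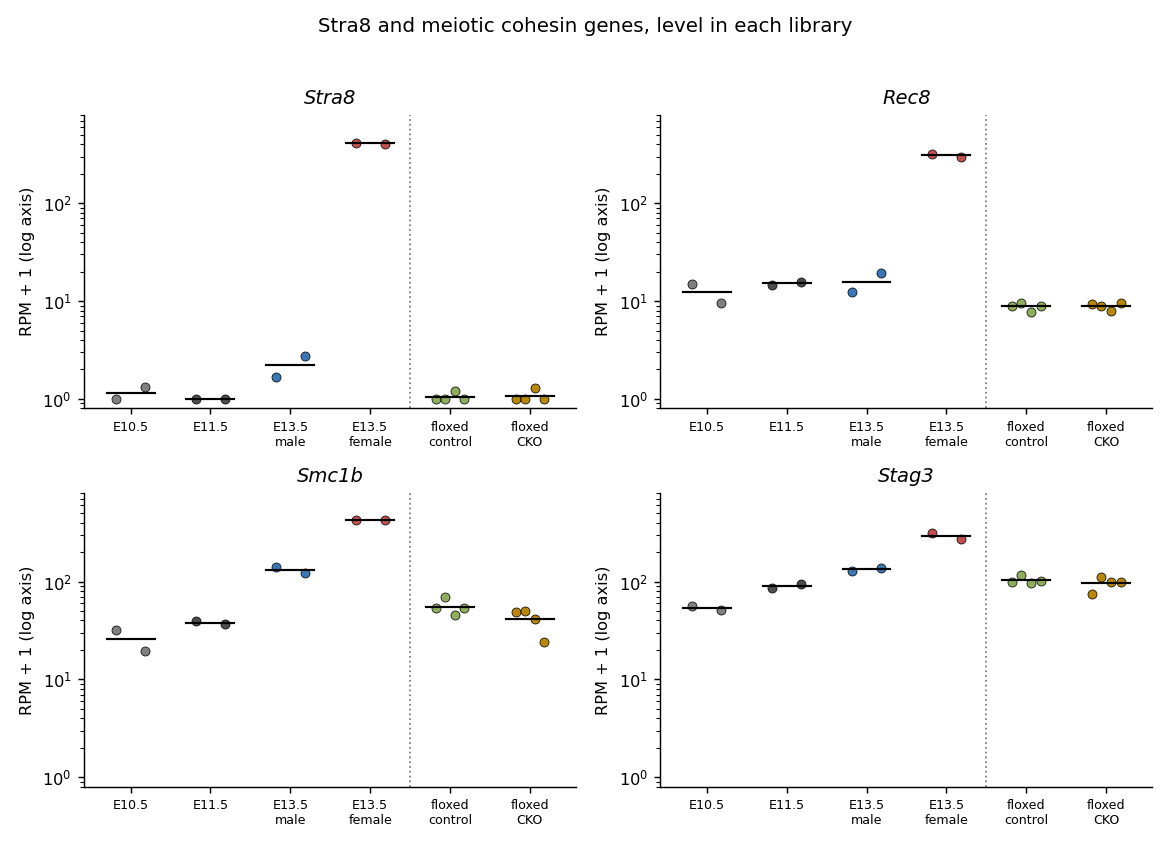
Level of Stra8, Rec8, Smc1b and Stag3 in each library, as RPM + 1 on a log axis, by group, with wild-type groups left and floxed groups right of the dotted line. Points are libraries and bars are group means. The 2 E13.5 female libraries lie highest for every gene, between 268 and 420.2 RPM.

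Stra8, the meiotic gatekeeper, was listed at 0 and 0.320 RPM at E10.5, at 0 and 0 RPM at E11.5, at 0.668 and 1.76 RPM in E13.5 males and at 412 and 403 RPM in E13.5 females. Both E13.5 female libraries stood far above all others. Pooled over a group, these values correspond to 1 read at E10.5, no read at E11.5, 7 reads in males and 3440 reads in females. Female PGCs were at least 199-fold above the highest E11.5 limit of 2.02 RPM and at least 297-fold above the E10.5 limit of 1.35 RPM. Per read sequenced, with female and male libraries pooled, the female level was 340.0 times the male one, with an exact 95% counting interval of 165 to 846. The test called Stra8 higher in males than at E11.5 (limma, adjusted p = 0.0417), a call resting on 7 reads against none and lost in 7 of 12 other settings, among them those without E11.5 library 1 or 2 (1.10 each on the log2 scale) or male library 2 (0.74), so no fold is given. Stra8 reached the minimum of 5 RPM in the 2 female libraries alone, so it was tested only because it is high there, and its p-values are no support for that difference. In bulk samples such as these, fewer cells of a type and less RNA per cell cannot be told apart.

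Rec8, the meiotic kleisin, was at 13.99 and 8.64 RPM in the E10.5 libraries, 13.47 and 14.8 RPM in the E11.5 libraries, 11.4 and 18.3 RPM in E13.5 males and 318 and 299 RPM in E13.5 females. The first 3 groups overlapped, and both female libraries stood far above all of them. The female mean of 308 ± 13.6 RPM (SD, n = 2) was 21.8-fold that of E11.5 and 20.8-fold that of males. On the log2(RPM + 1) scale Rec8 rose by 4.35 ± 0.24 (SE) in females (limma, adjusted p = 3.41e-14). In males the difference from E11.5 was 0.03 on the same scale, with a 95% interval of -0.47 to 0.53.

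Smc1b, the meiotic partner of SMC3, was at 31.1 and 18.6 RPM in the E10.5 libraries, 38.4 and 35.6 RPM in the E11.5 libraries, 139.6 and 120.8 RPM in E13.5 males and 419.8 and 420.2 RPM in E13.5 females. The 4 groups did not overlap and stood in the order E10.5, E11.5, male, female. With 2 libraries a group, lack of overlap is common, here and for the genes below. Of all genes tested, 46.2% had non-overlapping groups in either direction for E11.5 against E10.5. The share was 74.9% for females against E11.5, 66.2% for males against E11.5 and 71.1% for females against males. The Smc1b mean was 3.52-fold that of E11.5 in males and 11.4-fold in females. The log2 change from E11.5 was 1.79 ± 0.17 (SE) in males (limma, adjusted p = 2.13e-09) and 3.47 ± 0.17 in females (limma, adjusted p = 2.52e-15). Gm10923, the pseudogene inside Smc1b, was listed at 20.8 to 27.7 RPM over the 8 wild-type libraries, with overlapping ranges in all 4 groups.

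Stag3, the meiotic STAG subunit, was at 54.6 and 50.6 RPM in the E10.5 libraries, 84.2 and 92.2 RPM in the E11.5 libraries, 127 and 137 RPM in E13.5 males and 311 and 268 RPM in E13.5 females. Again the 4 groups kept that order without overlap. The female mean was 3.28-fold and the male mean 1.496-fold that of E11.5. The log2 rise was 1.70 ± 0.13 (SE) in females (limma, adjusted p = 2.05e-11) and 0.58 ± 0.13 in males (limma, adjusted p = 0.000776). The male call of Stag3 was lost when libraries were scaled by spike-in RNAs (limma, adjusted p = 0.0522), a scaling chosen after seeing the data.

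**Figure D2:**
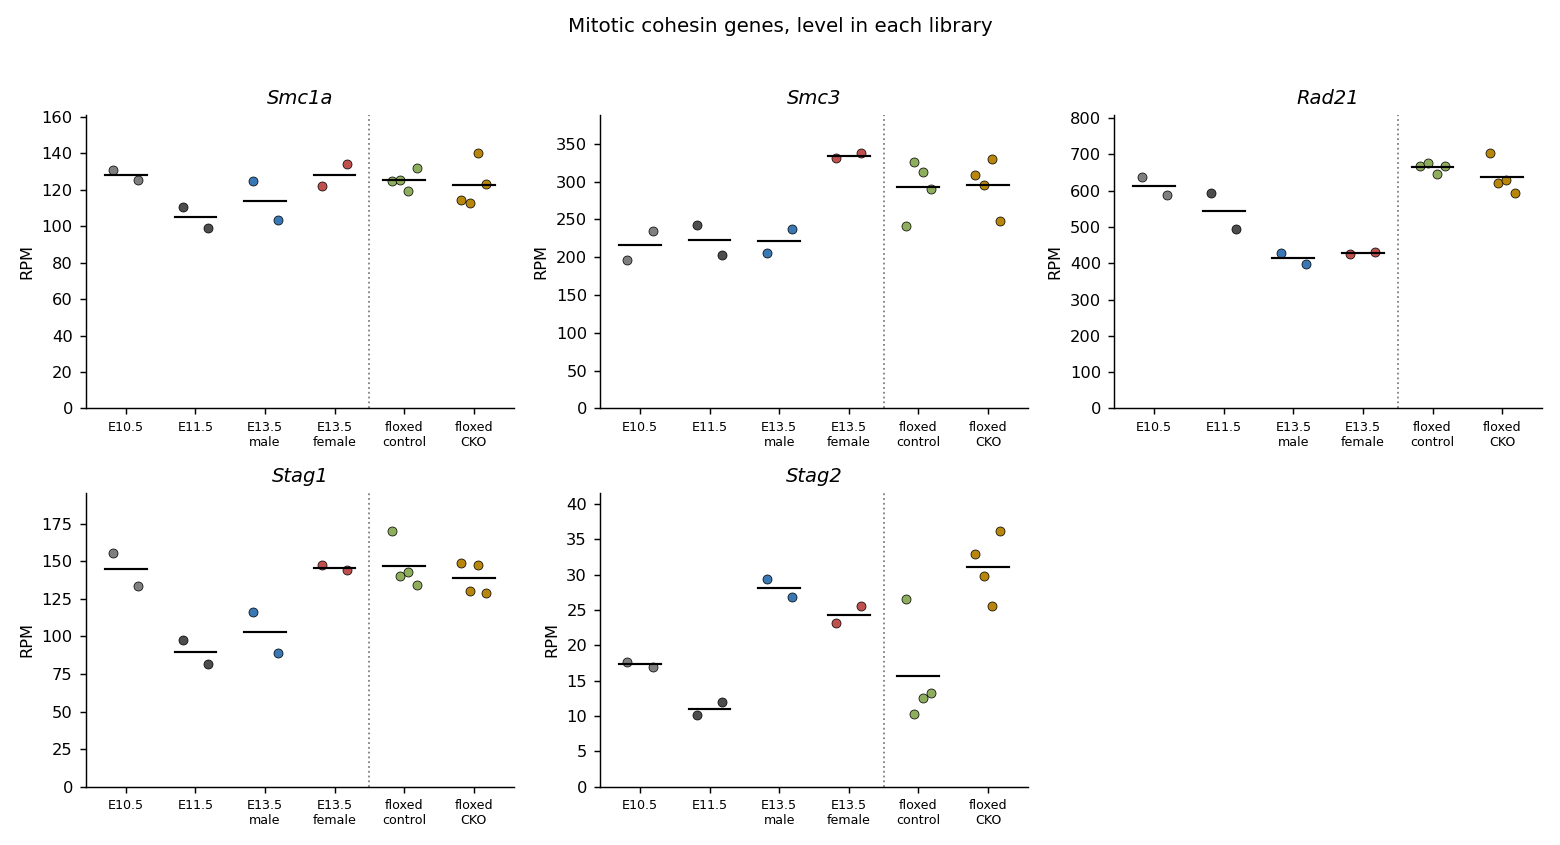
Level of Smc1a, Smc3, Rad21, Stag1 and Stag2 in each library, in RPM on a linear axis from 0, by group, with floxed groups right of the dotted line. Points are libraries and bars are group means. Rad21 at E13.5 lies between 398 and 429.8 RPM, under every earlier wild-type library, and Smc3 is highest in the E13.5 female libraries.

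Smc3, the subunit used by both kinds of ring, was at 196 and 235 RPM in the E10.5 libraries, 242 and 202 RPM in the E11.5 libraries, 205 and 237 RPM in E13.5 males and 331 and 338 RPM in E13.5 females. Only the female libraries stood apart, 1.504-fold above E11.5 (log2 change 0.59 ± 0.11, SE; limma, adjusted p = 0.000107). In males the log2 difference from E11.5 was -0.01, with a 95% interval of -0.24 to 0.23.

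Rad21, the mitotic kleisin, was at 639 and 589 RPM in the E10.5 libraries, 594 and 494 RPM in the E11.5 libraries, 429 and 398 RPM in E13.5 males and 425 and 429.8 RPM in E13.5 females. All 4 E13.5 libraries lay below all 4 earlier ones. The log2 change from E11.5 was -0.34 ± 0.10 (SE) in females (limma, adjusted p = 0.00427) and -0.39 ± 0.10 in males (limma, adjusted p = 0.00196). Both calls were lost without E11.5 library 1, with limma adjusted p of 0.107 in females and 0.0588 in males, and under spike-in scaling the female change turned to 0.16 and the male change of -0.30 was not called.

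Stag1, a mitotic STAG subunit, was at 155 and 134 RPM in the E10.5 libraries, 97.7 and 81.4 RPM in the E11.5 libraries, 116 and 89.1 RPM in E13.5 males and 148 and 144 RPM in E13.5 females. E11.5 and male libraries overlapped, as did E10.5 and female libraries, and the second pair lay above the first. The rise in females was 0.70 ± 0.14 (SE) on the log2 scale (limma, adjusted p = 0.000142), and the male difference of 0.19 did not pass (limma, adjusted p = 0.302).

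Stag2, the other mitotic STAG subunit, was at 17.6 and 17.0 RPM in the E10.5 libraries, 10.1 and 11.96 RPM in the E11.5 libraries, 29.4 and 26.8 RPM in E13.5 males and 23.2 and 25.5 RPM in E13.5 females. Both E13.5 groups lay above both earlier groups, and males lay above females without passing the test. The log2 rise from E11.5 was 1.28 ± 0.26 (SE) in males (limma, adjusted p = 0.000266) and 1.08 ± 0.26 in females (limma, adjusted p = 0.00102).

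Smc1a, the mitotic SMC1 subunit, ranged from 99.1 to 134 RPM over the 8 wild-type libraries. Its group means were 128 ± 3.83 RPM at E10.5, 105 ± 8.04 at E11.5, 114 ± 15.1 in E13.5 males and 128 ± 8.45 in E13.5 females (SD, n = 2 each). No wild-type comparison called it, the nearest being females against E11.5 with a log2 difference of 0.29 (95% interval 0.02 to 0.55; limma, adjusted p = 0.0664), which was called in 3 of 13 other settings, at 0.37 without E11.5 library 1, 0.31 with limma's voom method and 0.79 under spike-in scaling.

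Female and male PGCs at E13.5 were then compared directly. With the same E11.5 group taken for both sexes, this also tests whether the change since E11.5 differed between them. Stra8, Rec8, Smc1b, Stag3, Smc3 and Stag1 were higher in females, 6 of the 9 genes, against 37.6% of all genes called in either direction and 21.2% called as higher. The fold of means was 20.8 for Rec8, 3.23 for Smc1b, 2.19 for Stag3, 1.51 for Smc3 and 1.42 for Stag1. On the log2 scale the differences were 7.57 ± 0.43 for Stra8, a value that depends on the pseudocount and is given without its p for the reason above, and 4.32 ± 0.24 for Rec8 (SE; limma, adjusted p = 3.47e-14). They were 1.69 ± 0.17 for Smc1b and 1.12 ± 0.13 for Stag3 (limma, adjusted p = 6.47e-09 and 7.17e-08). Smc3 differed by 0.60 ± 0.11 and Stag1 by 0.51 ± 0.14 (limma, adjusted p = 0.000147 and 0.00450). The Stag1 call was lost without male library 2 (log2 difference 0.32; limma, adjusted p = 0.136). Rad21 (0.05, 95% interval -0.15 to 0.25), Smc1a (0.17, -0.09 to 0.44) and Stag2 (-0.20, -0.73 to 0.33) did not pass. The median difference of the 4 genes linked to meiosis was 3.00 and that of the 5 mitotic genes 0.17, beside 0.05 over all genes tested, the first with Stra8 included and so a description.

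The E13.5 groups differed in other respects as well. Summed germ cell markers were at 8988 to 9402 RPM in males and 5598 to 5769 RPM in females, an order set by Dppa3 at 6164 to 6401 RPM and 2390 to 2567 RPM. Without Dppa3 the other 7 markers summed to 2824 to 3000.1 RPM in males and 3202 to 3208 RPM in females. Among them Ddx4, Dazl, Kit and Tfap2c were each higher in females, and Pou5f1, Dnd1 and Nanos3 were each higher in males. The 5 Sertoli markers summed to 35.6 to 46.8 RPM in males and 21.1 to 25.5 RPM in females, with Cst9 at 13.7 to 16.7 RPM and 0, and Amh at 0 in both. The 10 gonadal somatic and mesenchymal markers summed to 15.4 to 15.8 RPM in males and 4.66 to 5.02 RPM in females. Females had a higher sum for the 5 markers of ovarian supporting cells (12.1 to 15.6 against 1.34 to 2.47 RPM). Of these, Foxl2 was at 0 to 0.548 RPM in females. Fst went the other way, at 0.209 to 0.822 RPM in females and 1.34 to 1.76 RPM in males. Sums of the 6 erythroid markers were also higher in females (22.8 to 32.6 against 2.67 to 3.52 RPM). The 6 endothelial markers summed to 115.6 to 123 RPM in females and 58.8 to 60.1 RPM in males, nearly all of it Pecam1, with Cdh5 and Kdr at 0 in females. The 5 macrophage markers summed to 1.88 to 3.29 RPM in females and 0 to 1.34 RPM in males. The part of these differences in the results was not tested.

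**Figure D3:**
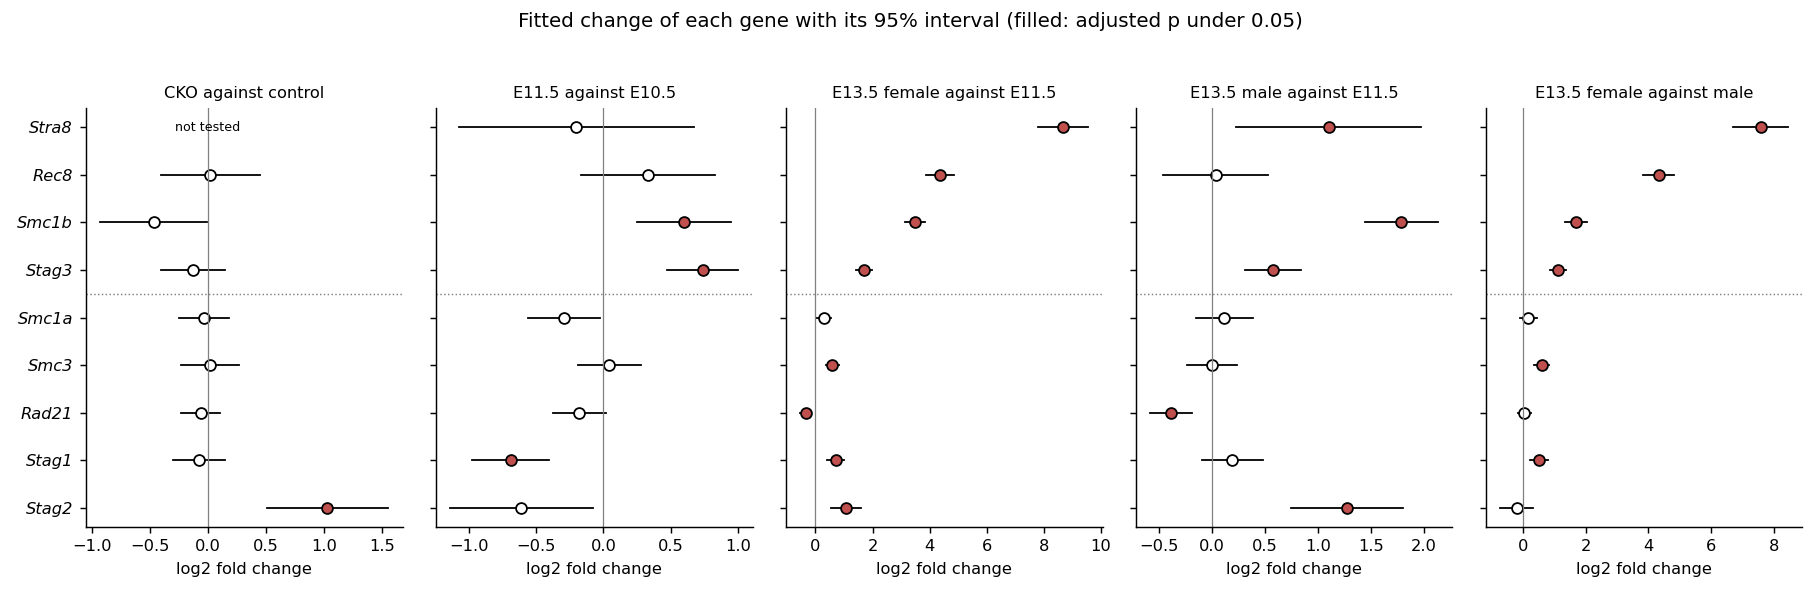
Fitted log2 fold change of each gene with its 95% interval in the 5 comparisons, filled where the limma adjusted p is under 0.05. Each panel has its own horizontal scale, and Stra8 was not tested in the floxed table. Stra8 and Rec8 lie farthest right in the comparisons of E13.5 females.

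Because both X-linked genes are mitotic subunits, their sex differences were set beside those of the rest of the chromosome. Over the 408 X-linked genes tested, the median log2 difference between females and males was 0.69, with 80.1% above 0. Over 9991 genes on other chromosomes it was 0.03, with 52.3% above 0. Smc1a (0.17) and Stag2 (-0.20) thus lay below the X-linked median, Stag2 in the opposite direction without passing the test, although under spike-in scaling its difference was 0.20. From E11.5 to E13.5 in females the X-linked median was 0.63, against 0.12 elsewhere, while Smc1a differed by 0.29 and Stag2 rose by 1.08. The labels do not give the sex of the E11.5 libraries, so stage and sex cannot be told apart in these X-linked values.

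**Figure D4:**
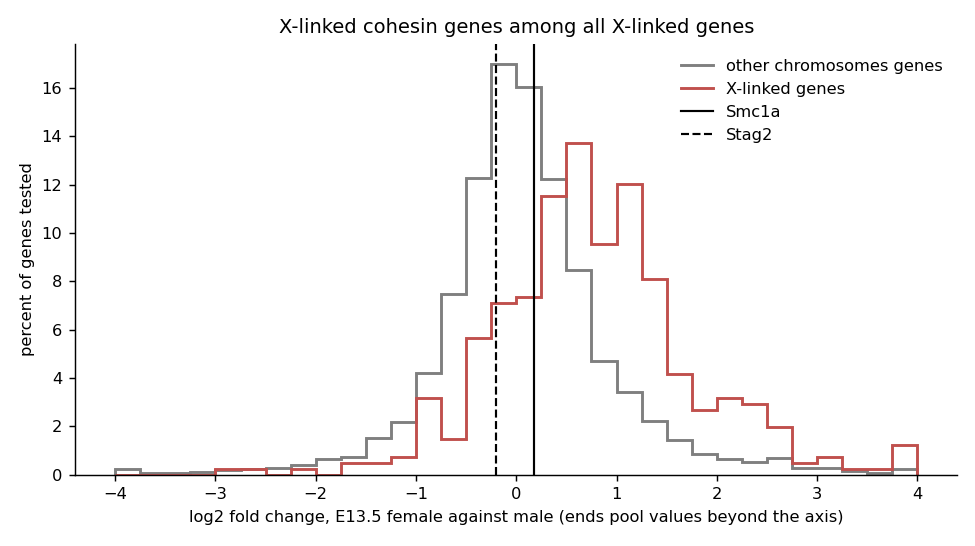
Distribution of the log2 fold change between E13.5 female and male PGCs over 408 X-linked genes (red) and 9991 genes on other chromosomes (grey), in percent of genes tested, with end bins holding values beyond the axis. Vertical lines mark Smc1a (solid, 0.17) and Stag2 (dashed, -0.20), both left of the X-linked median of 0.69.

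Within a library, the ratio of a meiotic transcript to its mitotic counterpart does not depend on library scaling, apart from the added pseudocount. It describes RNA, and not protein or assembled rings. Values are differences of log2(RPM + 1), and only their change between groups is read. Rec8 over Rad21 averaged -5.67 at E10.5, -5.16 at E11.5, -4.74 in E13.5 males and -0.47 in E13.5 females. It moved by 4.70 from E11.5 to females, whose libraries stood apart from all others, whereas E11.5 and male libraries overlapped. Smc1b over Smc1a averaged -2.36, -1.48, 0.19 and 1.71 in the same order, and the 4 groups did not overlap. Stag3 over Stag1 averaged -1.44, -0.02, 0.37 and 0.98, with E11.5 and male libraries overlapping. Stag3 over Stag2 followed another order, at 1.55, 2.89, 2.19 and 3.52, with the male libraries below those of E11.5, where Stag2 was lowest. These ratios are given as a description, with no test.

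**Figure D5:**
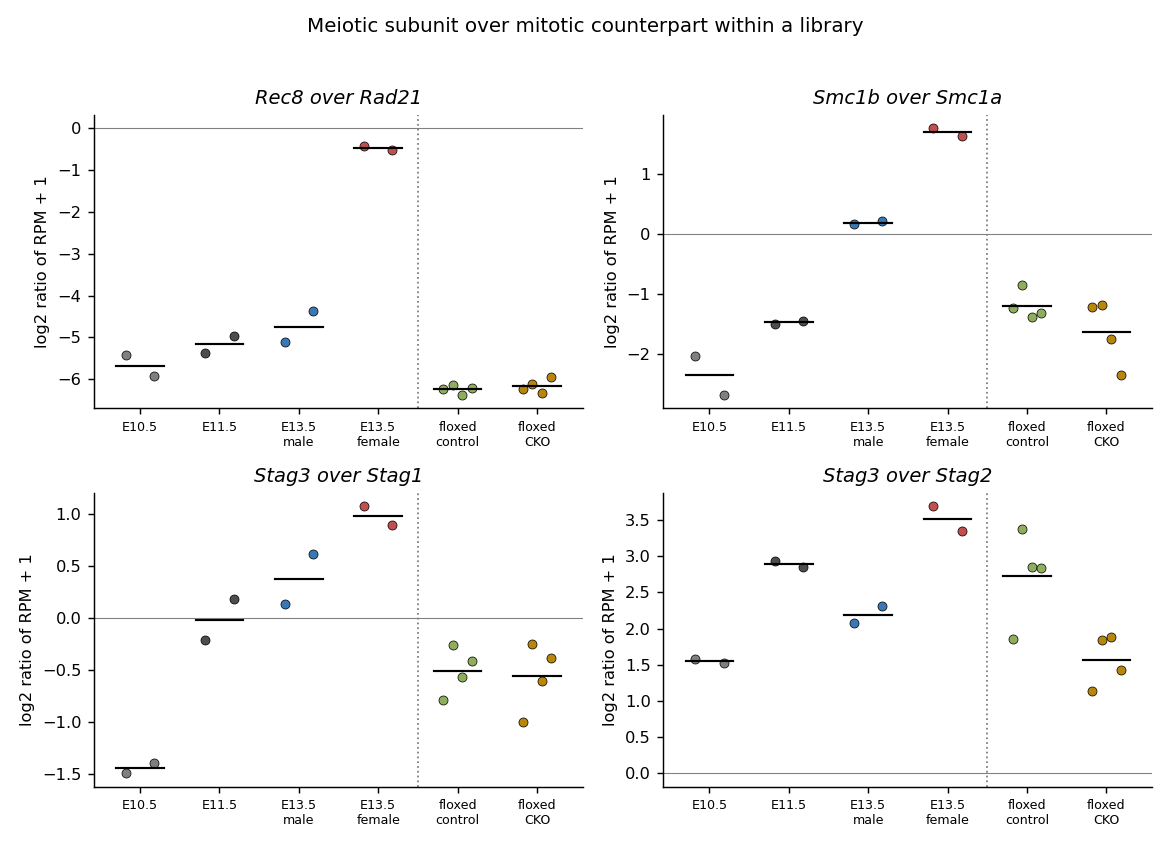
Difference of log2(RPM + 1) between a meiotic cohesin gene and its mitotic counterpart within each library, by group, with floxed groups right of the dotted line. Points are libraries and bars are group means. The E13.5 female group has the highest mean for all 4 pairs, and Rec8 over Rad21 averages -0.47 there against -5.16 at E11.5.

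Fewer of the 9 genes changed before sexual differentiation. From E10.5 to E11.5, Smc1b and Stag3 rose and Stag1 fell, 3 of the 9 genes, against 4.28% of all genes called, 2.31% as higher and 1.97% as lower. Stag3 rose 1.68-fold (log2 change 0.73 ± 0.13, SE; limma, adjusted p = 0.000880), and the call was lost under spike-in scaling (0.31; limma, adjusted p = 0.438). Smc1b was 1.49-fold higher (0.60 ± 0.17; limma, adjusted p = 0.0398), a call lost in 10 of 13 other settings, where limma adjusted p reached 0.673. Its log2 difference was 0.24 without E10.5 library 2, 0.54 without E11.5 library 1 and 0.65 without E11.5 library 2, uncalled each time. Stag1 was 1.61-fold higher at E10.5 than at E11.5 (log2 change -0.69 ± 0.14; limma, adjusted p = 0.00371), a call lost with no filter, without E10.5 library 1 (-0.58) and without E11.5 library 2 (-0.56). Rec8 (0.33), Smc1a (-0.29), Smc3 (0.04), Rad21 (-0.18) and Stag2 (-0.61) did not pass, with limma adjusted p from 0.184 to 0.876. At E10.5, transcripts of other cells were higher as well: 6 erythroid genes summed to 213 to 224 RPM against 5.98 to 14.8 RPM at E11.5. Gonadal somatic and mesenchymal genes summed to 56.4 to 63.4 RPM at E10.5 and 6.06 to 7.12 RPM at E11.5, and their part in these differences was not tested.

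The floxed libraries address whether the same genes differed at E11.5 after induced deletion of Prdm1, a transcriptional repressor needed to form PGCs. Only the libraries labelled CKO carried the Dppa3-MCMP transgene, so its effects and those of the deletion cannot be told apart. Prdm1 itself was at 66.2, 50.7, 63.0 and 73.0 RPM in control libraries 1 to 4 and at 79.9, 84.1, 76.6 and 89.4 RPM in CKO libraries 1 to 4. All libraries labelled CKO thus lay above all controls for the targeted gene, although it was not called (limma, adjusted p = 0.164). Whether the 3′ reads fall within the deleted part is not given in the sources used here, so these levels do not check the labels, and the CKO libraries are named by their label.

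Stag2 was the 1 gene called among the 8 tested in the libraries labelled CKO, against 2.43% of all 9384 genes, 1.93% as higher and 0.501% as lower. It was at 26.5, 10.3, 12.5 and 13.2 RPM in control libraries 1 to 4 and at 33.0, 29.8, 25.5 and 36.1 RPM in CKO libraries 1 to 4. Control library 1 lay within the CKO range and the other 3 controls lay well below it. The mean was 1.99-fold higher in the libraries labelled CKO (log2 difference 1.03 ± 0.24, SE; limma, adjusted p = 0.0418). The call stood close to the threshold: it was lost on leaving out control library 2, 3 or 4 or any CKO library, with limma adjusted p of 0.0666 to 0.142. Without control library 1 the log2 difference was 1.299 (limma, adjusted p = 0.000990). Without control library 1 and CKO library 4 together it was 1.23 (limma, adjusted p = 0.00191). Among the CKO libraries, Stag2 stood in the same order as the summed gonadal somatic markers, from 9.47 RPM in library 3 to 250.2 RPM in library 4. Among the controls it did not, as library 1 had the highest Stag2 and the lowest sum (12.7 RPM). The part of these transcripts in the Stag2 values was not tested. The 350 X-linked genes tested had a median log2 difference of -0.02 in this comparison, and the labels do not give the sex of the E11.5 embryos.

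The genes linked to meiosis did not pass the test in this comparison. Stra8 was listed at 0 in 6 of the 8 libraries and at 1 read in control library 3 and CKO library 3, which leaves it untested. Rec8 was at 7.95, 8.55, 6.79 and 8.01 RPM in controls and 8.36, 7.95, 6.89 and 8.58 RPM in the libraries labelled CKO. The groups covered nearly the same range, with a log2 difference of 0.02 and a 95% interval of -0.41 to 0.45. Stag3 was at 98.3, 117, 96.1 and 101 RPM in controls and 73.8, 109, 97.0 and 98.7 RPM in the libraries labelled CKO, a difference of -0.13 (95% interval -0.40 to 0.15).

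Smc1b was at 52.4, 68.6, 44.9 and 52.3 RPM in controls and 48.3, 48.9, 40.8 and 23.2 RPM in the libraries labelled CKO. The groups overlapped, and CKO library 4 was lowest. The log2 difference was -0.47 ± 0.21 (SE; limma, adjusted p = 0.404), and it was -0.23 without CKO library 4. That library also held the most gonadal somatic transcripts, with 10 marker genes summing to 250.2 RPM and none at 0. The other CKO libraries summed to 9.47 to 101 RPM and the controls to 12.7 to 72.0 RPM. The part of these transcripts in the Smc1b values was not tested.

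Smc1a, Smc3, Rad21 and Stag1 differed between the floxed groups by -0.08 to 0.02 on the log2 scale, with 95% intervals within -0.30 to 0.27. Smc3 was at 241 to 326 RPM in controls and 247 to 329 RPM in the libraries labelled CKO, Rad21 at 647 to 675 and 594 to 703 RPM, Stag1 at 134 to 170 and 129 to 149 RPM, and Smc1a at 119.5 to 132 and 112 to 140.1 RPM. Each pair of ranges overlapped. The meiotic to mitotic ratios overlapped as well, with Stag3 over Stag2 averaging 2.73 in controls and 1.57 in the libraries labelled CKO.

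The cohesin genes act with loaders, acetylases and protectors, and 15 of the 16 listed ones were measurable. In E13.5 females 5 were higher and 4 lower than at E11.5, 9 of 15 beside 51.2% called over all genes, with a median log2 difference of 0.27 beside 0.13. Nipbl, which loads cohesin, went from 45.9 ± 6.5 to 89.4 ± 12 RPM (SD, n = 2) and Esco1, a cohesin acetylase, from 36.5 ± 15 to 74.1 ± 13 RPM. Esco2, Espl1, which encodes the protease separase, and Pds5a were higher too. Cdca5, which encodes the mitotic protector sororin, fell from 184 ± 18 to 90.5 ± 3.2 RPM and Ppp2r5a, a phosphatase subunit, from 41.8 ± 5.6 to 19.4 ± 0.67 RPM. Sgol2, a protector of centromeric cohesion, and Ctcf, which halts cohesin on chromatin, were also lower. Males had 4 of the 15 higher and 5 lower, beside 38.2% called over all genes, with Nipbl at 64.5 ± 14 RPM and Ppp2r5a higher at 68.4 ± 16 RPM. Between females and males 6 were higher and 2 lower, beside 37.6% over all genes. From E10.5 to E11.5, 0 of the 15 were called by limma and 0 by limma's voom method, with 2 at an unadjusted p under 0.05.

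Of 15 measurable genes that govern entry into meiosis, 8 were higher and 2 lower in E13.5 females than at E11.5, beside 51.2% of all genes called. The limma counts were the same in males, beside 38.2% of all genes, where voom called 6 higher and 1 lower. The median log2 differences were 0.81 in females and 0.95 in males. Among the 15, Gm1564 and Msx1 reached the minimum of 5 RPM through the females alone and Nanos2 through the males alone, so these counts are a description. Zglp1, a regulator of oogenic fate, was at 7.25 ± 2.6 RPM at E11.5, 75.2 ± 9.5 RPM in females and 15.0 ± 4.8 RPM in males. Zglp1 was called in both sexes by limma, and the male call was lost with limma's voom method (voom, adjusted p = 0.0742). Gm1564, the symbol listed for Meioc, whose product works with YTHDC2 to sustain meiotic prophase, was at 0.427 ± 0.60 RPM at E11.5, 108 ± 7.2 RPM in females and 3.09 ± 0.12 RPM in males. Dazl, an RNA-binding protein that licenses germ cells for sexual development and was also used here as a germ cell marker, was called higher at each later stage and in females than in males, at 34.2 ± 1.8, 239.96 ± 27, 1355 ± 50.3 and 1648 ± 11 RPM at E10.5, E11.5, in males and in females. Nanos2, a repressor of meiosis in male germ cells, was listed at 0 at E11.5, at 39.5 ± 3.4 RPM in males and at 0.105 ± 0.15 RPM in females. Msx2 was at 49.3 ± 1.7 RPM at E11.5, 87.0 ± 3.2 RPM in females and 1.02 ± 0.45 RPM in males. Max, whose protein partners MGA in repressing meiotic genes in mouse cells, fell in females from 106 ± 8.0 to 64.1 ± 10 RPM. In males Max was at 131 ± 1.3 RPM and was not called against E11.5. Mga rose in both sexes, from 28.0 ± 3.4 RPM to 62.7 ± 4.0 RPM in females and 58.2 ± 4.6 RPM in males.

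All 16 measurable genes of early meiotic prophase were called higher in E13.5 females than at E11.5, beside 31.2% of all genes. This count is a description, since Msh4 and Dmrtc2 were measurable only through the females. In males 13 were higher, or 11 by voom, beside 22.3% of all genes, and Syce3 (0.79), Syce2 (-0.13) and Dmrtc2 (-0.93) did not pass. The median log2 differences were 2.67 in females and 1.1501 in males. Sycp1, a rod of the synaptonemal complex, was at 2.72 ± 0.99 RPM at E11.5, 47.7 ± 8.6 RPM in males and 120 ± 30 RPM in females. Sycp3, part of the chromosome axis on which meiotic cohesin sits, was at 9.18 ± 1.3, 38.2 ± 3.2 and 127 ± 4.3 RPM in the same order. Between females and males limma called 12 of the 16 higher and none lower, beside 21.2% and 16.4% of all genes, and voom called 14 higher and 2 lower. The lower ones by voom were Spo11, which makes the breaks of recombination, at 18.3 ± 1.4 RPM in females and 29.0 ± 0.13 RPM in males, and Sycp2, a further axis gene, at 19.7 ± 0.40 and 29.5 ± 6.4 RPM. Msh4 and Dmrtc2 reached the minimum through the females alone, so they were tested only because they are high there. Their calls in females are no support, and the counts do not stand for all 20 genes listed. Of the related condensin and SMC5/6 genes, 5 of 10 were higher and 2 lower in females than at E11.5, beside 31.2% and 20.0% of all genes, among the higher ones Smc4 at 162 ± 24 and 324 ± 29 RPM and Smc6 at 47.6 ± 14 and 138 ± 23 RPM. In the libraries labelled CKO, limma and its voom method each called 0 of 15 cohesin partners, 0 of 11 entry regulators, 0 of 10 prophase genes and 0 of 10 condensin and SMC5/6 genes. At an unadjusted p under 0.05 there were 0, 0, 1 and 1 of them.

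The genes most like each of the 4 genes linked to meiosis were sought over the 8 wild-type libraries, by Pearson r of log2(RPM + 1). From 8404 genes, the members themselves and predicted or unnamed genes were left out of the ranking. The latter are those with Gm, Rik, LOC or clone names, so Gm1564 was not ranked. With 8 libraries in 4 groups, these coefficients mostly describe which groups are high. For Stra8 they were Siah1b (0.998), Bcap31 (0.990), Tank (0.990) and Ofd1 (0.989), of which 3 are X-linked. Rec8 was followed by Madd (0.992), Scmh1 (0.990), Siah1b (0.987) and Zrsr2 (0.985), of which 2 are X-linked. For Smc1b they were Dzip3 (0.995), Dennd5a (0.994), Kdm2b (0.994) and Sf3b3 (0.992), and for Stag3 Tex101 (0.994), Rnf169 (0.992), Hormad1 (0.991) and Rnd2 (0.991), none of them X-linked. Siah1b averaged 78.4, 78.7, 89.3 and 200.1 RPM at E10.5, E11.5, in males and in females, and Kdm2b 39.7, 55.5, 108.6 and 191.9 RPM. Among the members, Stra8 correlated with Rec8 at 0.987 and Smc1b with Stag3 at 0.974 over the same libraries.

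Scaling matters for how far these directions hold, because RPM fixes the total of each library. When libraries were instead scaled by 92 spike-in RNAs, which summed to 11006 to 19252 RPM in the wild-type table, the median log2 change over all genes moved from 0.02 to -0.39 for E11.5 against E10.5. It moved from 0.13 to 0.61 for females against E11.5, from 0.11 to 0.19 for males against E11.5 and from 0.05 to 0.45 between females and males. The calls moved with it. At E11.5 against E10.5 they went from 248 higher and 212 lower to 28 and 509, in females from 3354 and 2148 to 4729 and 574, in males from 2392 and 1713 to 1524 and 830, and between females and males from 2280 and 1758 to 3260 and 473. Spike-in sums were 15507 and 11006 RPM in E13.5 female libraries 1 and 2, so this scaling also differs between replicates of a group. Per the labels, each wild-type library started from 1 ng of RNA. Spike-in scaling is therefore given as an alternative and not as a measure of RNA per cell. The log2 rise in females over the 13 settings tried ranged from 3.72 to 4.84 for Rec8, from 3.19 to 3.97 for Smc1b and from 1.58 to 2.199 for Stag3.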

How the data were processed

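The series holds 16 libraries of mouse primordial germ cells in 2 tables of 26219 genes. Per the submitters' processing notes, the tools were cutadapt 1.3, TopHat 1.4.1 and Cufflinks 2.2.0 with build mm10. The deposited values are RPM (reads scaled to a common library total), given by the authors per gene for 3′ reads and not divided by transcript length. Each library's read depth was recovered from the step between its low values: 99.61% to 99.79% of positive values were whole multiples within 0.05 reads.

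Differences were tested with limma 3.58.1 (R 4.3.3) on log2(RPM + 1) with a mean-variance trend, two-sided, with Benjamini-Hochberg adjustment over all genes at 5 RPM or more in 4 floxed or 2 wild-type libraries, called at adjusted p under 0.05. The floxed table was fitted alone (4 against 4) and the wild-type table in 1 fit of 4 groups of 2. The tables were normalised apart, so no test crosses them. A fold change on this scale understates changes of low genes. The fits were tested on simulated data. Replicate libraries differed by more than sampling noise (chi-square per degree of freedom 2.20 to 10.5).

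The 9 genes, the gene lists and the marker lists were chosen with earlier results of these data known. Genes named from a list had been called in at least 1 comparison. The 4 genes most like each meiotic gene were ranked by Pearson r among genes averaging 10 RPM or more. The 9 genes and predicted or unnamed genes were left out of that ranking. Rad21l, a further meiotic kleisin, was too low to test, and 2 listed genes, Meiosin and Meiob, were not matched by name. Promoter sequences and coordinates are RefSeq's for GRCm38.p6. Alternatives covered the pseudocount, the filter, the scaling, a replicate block, left-out libraries and limma's voom on recovered reads.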

Additional observations from a re-analysis of the deposited data

Results flagged for a closer look

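For 6 genes the change from E11.5 to E13.5 was called different between the sexes by the limma test of females against males, in which the shared E11.5 group cancels. The change in females minus that in males was 7.57 on the log2 scale for Stra8, 4.32 for Rec8, 1.69 for Smc1b, 1.12 for Stag3, 0.60 for Smc3 and 0.51 for Stag1. Stra8 passed the minimum of 5 RPM through the female libraries alone, so its value is a description and its test is no support. Both female libraries lay above both male libraries for each of the 6, which were picked by this same comparison. Over all 10749 genes tested, 71.1% had female and male libraries that did not overlap, in either direction. In the floxed groups of 4, 16 sets of values were examined for a single library far from its group, and 0 passed Dixon's 95% limit, where chance alone would mark about 1 set in 20.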

How the results depend on the processing

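Of 577 recomputed values of single genes, 512 kept direction and side of the threshold, 35 lost a call, 3 gained one and 27 changed sign. The number of genes called in the libraries labelled CKO was 0 with no filter on low values (Stag2, limma, adjusted p = 0.147) and 0 with the minimum raised to 20 RPM (limma, adjusted p = 0.0502), and 0 to 1 on leaving out a library. For E11.5 against E10.5 it was 1 with no filter, 1 under spike-in scaling and 1 to 2 on leaving out a library. For males against E11.5 it was 2 under spike-in scaling and 3 to 5 on leaving out a library, for females against E11.5 it was 7 to 8 and for females against males 5 to 6. A group left with 1 library is assumed to vary like the others. Among changes of sign, spike-in scaling gave -0.064 for Rec8 and -0.38 for Smc3 (E11.5 against E10.5), 0.16 for Rad21 (females against E11.5), 0.083 for Smc3 (males against E11.5) and 0.20 for Stag2 (females against males). The voom fit gave -0.0031 for Smc3 (E11.5 against E10.5), and -0.0080 for Rec8 and 0.027 for Smc3 in males, where median-ratio scaling gave -0.047 for Rec8. Without control library 1 and CKO library 4, Rec8 was at -0.0068 and Stag1 at 0.030. On leaving out a library in the floxed table, Rec8 ranged from -0.039 to 0.079, Smc1a from -0.10 to 0.0021 and Smc3 from -0.074 to 0.10. Smc3 ranged from -0.085 to 0.17 for E11.5 against E10.5. In males against E11.5, Rec8 ranged from -0.29 to 0.35, Smc1a from -0.020 to 0.25, Smc3 from -0.14 to 0.12 and Stag1 from -0.0013 to 0.38, and Rad21 in females against males from -0.0052 to 0.10. The causes of these shifts were not tested. The voom fit, spike-in scaling and the removal of both libraries were chosen after seeing the data. With the replicate number as a block, 1 of the 9 genes was still called in the floxed comparison and 3, 8, 5 and 6 in the others, while calls over all genes went from 228 to 314 in the floxed table. Same-numbered floxed libraries deviated together by r of 0.0198 to 0.252, and differently numbered ones by -0.229 to 0.183. For control libraries 1, 3 and 4 the same-numbered CKO library had the highest r, and for control library 2 it did not. The labels do not say what same-numbered libraries share, so the main fit used no pairing. Without a filter, genes called from E10.5 to E11.5 went from 460 to 80 and in the floxed table from 228 to 152, and median-ratio scaling turned 248 higher and 212 lower at E11.5 into 212 and 280. In females against E11.5 it turned 3354 higher and 2148 lower into 2819 and 2616. Depth limits Stra8 outside E13.5 females, where 3 reads stand for up to 2.02 RPM.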
